A study of Homo sapiens with 8 samples.

Results

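SH-SY5Y, a human neuroblastoma cell line with a low MYCN signal, was compared with NB-39-nu, SK-N-BE and SK-N-DZ, 3 neuroblastoma lines with a high MYCN signal. The SH-SY5Y side held 2 of the 8 arrays of the series and the other side held 6. Each line gave 1 array from cells infected with the control lentivirus (shCont, in the vector pLKO.1) and 1 from cells infected with a lentivirus carrying a hairpin against BMI1 (shBMI1-1), a Polycomb subunit that was the subject of the study. All 8 cultures had therefore been infected, and no uninfected culture was analysed here. Cells were harvested for RNA 8 to 14 days after infection, and the labels do not say which day applies to which array.

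SH-SY5Y is represented here by a single line, as is each line it was set against. The MYCN level and every other property of these lines cannot be told apart in this comparison. The 2 arrays of a line share that line, so the line was the unit of the test (1 line against 3). The lone line was assumed to vary like the others, and p-values measure the spread between lines. The number of lines, with 2 arrays each, limits the precision.

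Neuroblastoma is a tumour of the sympathetic nervous system that arises from neural crest cells. MYCN, a transcription factor of the MYC family, is amplified in many high-risk tumours, and it pairs with MAX to bind short DNA elements called E-boxes and to raise genes for growth and cell division. Lines without MYCN amplification, such as SH-SY5Y, often express MYC in its place. Most neuroblastoma lines keep an adrenergic identity, set by transcription factors such as PHOX2A, HAND2, GATA3 and ISL1, and make enzymes of noradrenaline synthesis.

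The labels of the comparison were checked first. MYCN is the marker that names its sides, so the p-values of MYCN check the label and are no separate result. MYCN read 449 on the control array and 683 on the knockdown array of SH-SY5Y. It read 59743 and 51340 in NB-39-nu, 43219 and 55281 in SK-N-BE, and 50064 and 44318 in SK-N-DZ. Every SH-SY5Y array was thus far below every other array, with the nearest 2 arrays 62.6-fold apart. On the log2(signal + 8) scale, used for all differences and folds here, MYCN was lower in SH-SY5Y by 6.49 (difference -6.49, SE 0.31), which is 89.6-fold. This was the lowest p of all genes tested, and it did not pass the threshold of 0.05 (limma adjusted p = 0.0615). With the genes above the 75th percentile alone it passed (limma adjusted p = 0.00582). Exchanging the 4 line labels in an exact two-sided permutation test gave p = 0.25, and 4 lines allow no smaller value. MYCN has 9 further probe sets, all under the filter on dim genes: differences of -3.69 and -3.77 came with no overlap in 2 of them, and 2 of the 9 were higher in SH-SY5Y (1.17 and 0.28) with overlapping arrays.

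MYC ran the other way. It read 629 and 1362 in SH-SY5Y, against 1.90 and 6.81 in NB-39-nu, 9.33 and 29.2 in SK-N-BE and 5.57 and 9.77 in SK-N-DZ. The 6 lower values lie under the table's median signal of 75, where the size of a fold is uncertain. The difference was 5.79, and with the table median as pseudocount in place of 8 it was 3.56. MYC lay under the filter on dim genes and was not tested in the fit. The exact permutation test of MYC, two-sided, was at its floor as well (p = 0.25). MYCL, the remaining family member, read 407 and 422 in SH-SY5Y and between 93.5 and 189 on the other arrays, a 2.80-fold difference (limma adjusted p = 0.953). MAX, the partner of all 3 proteins, read 3408 and 3016 in SH-SY5Y and from 2098 to 4506 elsewhere, so its groups overlapped. MLXIP and MLX, which form a related dimer, had differences of -1.35 and -0.72, and both were below all 6 other arrays. BMI1, the target of the hairpin, read 5169 and 3386 in SH-SY5Y and from 1318 to 7175 in the others, with overlapping groups.

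**Figure D1:**
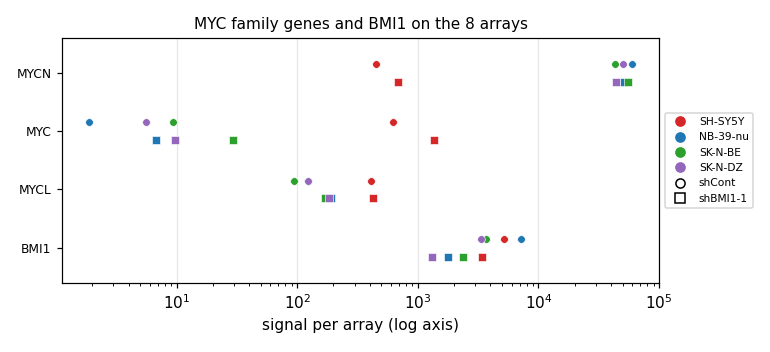
Signal of MYCN, MYC, MYCL and BMI1 on each array on a log axis, with colour for the line and shape for the hairpin. The SH-SY5Y arrays sit at 449 and 683 for MYCN, far below all others, and at 629 and 1362 for MYC, far above all others, while BMI1 overlaps.

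Of 12 markers of the adrenergic neuroblastoma type, 11 were measured and 10 passed the filter on dim genes. The summed signal of the 11 markers measured was 164996 to 180798 in SH-SY5Y and 45342 to 96151 on the other arrays. This sum is weighted to bright genes, such as CHGB at 35211 and 41886 in SH-SY5Y. The core factors PHOX2A, HAND2 and GATA3 had differences of 0.36, 0.29 and -0.78. TH, which makes the precursor of dopamine, lay under the filter. Of the 10 immune markers and the 8 endothelial markers measured, 0 passed the filter and none read above 500 on any array. The immune sum was 560 to 638 in SH-SY5Y and 257 to 935 elsewhere. The fibroblast markers summed to 2828 to 3195 in SH-SY5Y and 983 to 17214 elsewhere, and the epithelial ones to 325 to 569 and 358 to 1380.

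The test covered 9888 of 19776 genes, those whose mean level exceeded the median gene's. The limma fit on line means called 0 of them (0%) at an adjusted p under 0.05, with 202 higher and 271 lower in SH-SY5Y at an unadjusted p under 0.05, or 4.78% of the genes. A fit on the 8 arrays with knockdown status as covariate called 125 genes higher (1.26%) and 198 lower (2.00%). That fit treats the arrays of a line as separate replicates, so its p-values are too small. With the line as a random block, whose arrays correlated at 0.851, limma called 0 genes higher and 3 lower, MYCN, MYCNOS and RGS10. The level of single genes is therefore described mainly by whether the arrays overlap.

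A gene is called separated here when both SH-SY5Y arrays lay at least 1 log2 unit (2-fold) above, or below, all 6 other arrays. By this description, with no test, 171 genes were separated higher (1.73%) and 143 lower (1.45%). The nearest arrays were at least 8-fold apart for 8 genes on the higher side and 23 on the lower side. A mean difference of at least 1 log2 unit was far more common, with 1214 genes higher (12.3%) and 736 lower (7.44%). Of the 143 separated lower, 43 had both SH-SY5Y arrays under the table median of 75. Of the 171 separated higher, 0 had all 6 other arrays under it. The filter on mean level can remove such genes, as it did MYC, so the 0 does not mean that the other lines were bright. TES, for example, had a median of 63.7 on the other arrays. The filter also lets in genes that are dim in the other lines and bright in SH-SY5Y. In all, 263 of the 9888 genes tested had a mean over the other lines under the filter and passed through their SH-SY5Y level. Among the genes separated highest, these included TES, OCLN, ARHGAP36, CALCB, INHBE and LPAR2. Their log2 means over the other lines were 6.23, 6.47, 6.49, 6.59, 6.69 and 6.73. How many of the 171 were among them was not counted. The 171 therefore cannot be read apart from the filter. Among the 9888 genes that the filter left out, 192 were separated higher and 57 lower. The limit of 1 falls in a continuous range: SCYL2 (1.01) lay just inside it and TRIM16L (0.999) just outside on the higher side, NET1 (1.00) and NCAPD2 (0.9999) on the lower side.

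SH-SY5Y was no more distant from the other lines than they were from each other. Across all genes tested, which are not independent replicates, its arrays correlated with those of other lines at r from 0.731 to 0.790, and arrays of the other lines among themselves at 0.723 to 0.793. The 2 SH-SY5Y arrays correlated at 0.979.

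Among the 15 genes separated highest, TES encodes testin, a LIM-domain protein of focal adhesions. It read 5882 and 3683 in SH-SY5Y, against a lowest, median and highest of 51.6, 63.7 and 94.3 on the other arrays. The difference was 5.95 (SE 0.65; limma adjusted p = 0.456), or 62.0-fold, and the nearest arrays were 36.1-fold apart, the widest gap among the genes separated higher. Another TES probe set, which was dimmer and under the filter, gave a difference of 4.22 with no overlap, and 1 more gave -0.63 with overlap. ARHGAP36, which restrains protein kinase A, read 55004 and 61157 in SH-SY5Y. SK-N-DZ followed at 4056 and 3657, and all 4 arrays of NB-39-nu and SK-N-BE were under 10. The high lines were thus SH-SY5Y and, at a lower level, SK-N-DZ.

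DBH, the enzyme that turns dopamine into noradrenaline, read 13331 and 11772 in SH-SY5Y and from 284 to 986 elsewhere (median 472), a difference of 4.70 (SE 0.61; limma adjusted p = 0.562). SYT4, a synaptotagmin of dense-core vesicles, read 12794 and 12421, with SK-N-BE next at 1105 and 814 and NB-39-nu lowest at 4.90 and 62.8. CALCB, which encodes a calcitonin gene-related peptide, read 2523 and 2308 and at most 279 elsewhere. PDE4B, a phosphodiesterase that degrades cyclic AMP, read 3073 and 3270 and at most 430. GNG11, a G protein gamma subunit, read 14149 and 11219 and at most 1713. LPAR2, a receptor for lysophosphatidic acid, read 1044 and 821 and at most 139. In these 6 genes the SH-SY5Y control and knockdown arrays differed little beside the distance to the next line.

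OCLN, which encodes the tight junction protein occludin, read 2071 and 1663 against at most 161 (difference 4.40, SE 0.76; limma adjusted p = 0.769). B4GALT6, which makes lactosylceramide, the base of gangliosides, read 4639 and 3577 against at most 439. SLC7A11, the cystine and glutamate exchanger, read 13043 and 12483 and varied strongly elsewhere, from 26.0 to 2151. INHBE, a subunit of activin E, read 3787 and 2994 against at most 298. PI15, a secreted peptidase inhibitor, RUNDC3B and the cyclin-like gene CCNYL2 complete the 15, with differences of 4.60, 4.40 and 3.88. All 15 lay between 8.81-fold and 646-fold above the mean of the other lines.

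The 15 genes separated lowest began with MYCN and MYCNOS, the antisense transcript that overlaps its start. MYCNOS read 14.1 and 9.36 in SH-SY5Y and from 1121 to 4419 elsewhere, a difference of -6.74 (SE 0.83; limma adjusted p = 0.562). It was thus near or under the level of dim probe sets in SH-SY5Y and clearly above it in all 3 other lines. RGS10, which shortens G protein signals, read 74.9 and 96.5 against 1584 to 3064 (difference -4.66, SE 0.58; limma adjusted p = 0.562).

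LIFR, the receptor for leukaemia inhibitory factor, read 216 and 92.7 in SH-SY5Y and from 3305 to 7614 elsewhere (difference -5.02, SE 0.53; limma adjusted p = 0.456). GFRA2, the receptor for the growth factor neurturin, read 53.7 and 93.8 and from 1213 to 5242 elsewhere. CD55, which shields cells from complement, read 1.42 and 39.1 against 980 to 2729. SULF2, an enzyme that trims heparan sulfate outside the cell, read 42.9 and 45.7 against 1169 to 9899, with SK-N-DZ lowest of the 3 lines. In these 4 genes no array of another line came close to an SH-SY5Y array.

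DYNLT3, a dynein light chain, read 70.9 and 26.5 against 2398 to 5057 (difference -5.85, SE 0.57; limma adjusted p = 0.456). SNX10, a sorting nexin of endosomes, read 3.85 and 17.6 against 745 to 5174. EPB41L3, a membrane skeleton protein, read 35.8 and 2.80 against 758 to 4874, and PARVA, which links integrins to actin, 19.7 and 2.73 against 365 to 1961. TMEM216, a protein of the base of cilia, read 59.0 and 3.74 against 1059 to 1687. IMPA2, an inositol phosphatase, TMTC1 and PRUNE2 had differences of -5.17, -6.23 and -5.67. For 9 of these 15 genes a second probe set also passed the filter, and all 14 such probe sets were lower in SH-SY5Y with no overlap of arrays. On the higher side there were 3 such probe sets of 3 genes, all higher with no overlap. Probe sets under the filter were mixed. Some of B4GALT6, PI15, RGS10, LIFR, TMTC1 and PARVA had overlapping arrays, and others, such as that of GNG11, had none. The genes were picked by their gap on these same arrays, and no share over all genes was taken.

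A further list holds genes that answer to the transcription factor ATF4. This factor is translated more when amino acids are short or when proteins misfold, and it raises genes for amino acid synthesis, amino acid uptake and transfer RNA charging. The list was added after values had been seen, so its counts describe and support nothing. Of its 40 tested members, 35 were higher in SH-SY5Y and 13 were separated higher, against 171 (1.73%) over all genes tested. The median difference was 1.38 for the list and 0.10 over all genes tested. Against NB-39-nu, SK-N-BE and SK-N-DZ it was 1.60, 0.94 and 1.33. Both SH-SY5Y arrays were above all 6 others for 25 members, where 18.3% of all genes tested were, and below them for 2, where 13.6% were. Of the 40, 4 had a mean over the other lines under the filter and passed through their SH-SY5Y level. With no filter, 37 of 42 members were higher, with a median of 1.40 (0.04 over all genes).

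The transcription factors of the pathway were high, but ATF4 itself was not. ATF4 read 21712 and 19379 in SH-SY5Y and 11855 to 21665 elsewhere (difference 0.29; limma adjusted p = 0.955), and its groups overlapped. ATF3 read 4680 and 5526 against 265 to 931 (difference 3.29, SE 0.74; limma adjusted p = 0.953). DDIT3, which encodes CHOP, read 2987 and 3454 against 328 to 842, and ATF5 900 and 815 against 87.2 to 155. CEBPG, a partner of ATF4 on DNA, read 4909 and 4840 against 1294 to 2294. TRIB3, a pseudokinase that dampens the response, read 12137 and 8493 against 366 to 1815. All 5 were above every other array.

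Downstream enzymes followed by role. ASNS, asparagine synthetase, read 43224 and 35491 against 2088 to 7603 (difference 3.21, SE 0.57; limma adjusted p = 0.769). CHAC1, which degrades glutathione, read 1489 and 1500 against 38.1 to 321. Among the transfer RNA synthetases, NARS1 read 27466 and 24764 against 3633 to 8483 and CARS1 15389 and 15913 against 4222 to 6433. GARS1, WARS1, SARS1 and YARS1 had differences of 1.69, 1.61, 1.27 and 0.97, while AARS1 was at -0.08. GDF15, a secreted stress cytokine, read 6803 on the control array and 2347 on the knockdown array of SH-SY5Y and at most 572 elsewhere. It was above every other array on both, though its SH-SY5Y level moved 2-fold or more with the hairpin (-1.53 on the log2 scale). At the other end, ALDH18A1, SHMT2 and PCK2, which serve proline, serine and phosphoenolpyruvate metabolism, had differences of -0.77, -0.70 and -0.26. GARS1, WARS1, SARS1, YARS1 and AARS1 were chosen for naming after their values were seen.

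Some separated members carry an ATF4-type element in the 250 bases before a RefSeq start. The element searched was TGATGNAA on both strands, the composite of half-sites bound by ATF4 with a C/EBP partner. It is shown because it is the letter pattern through which this group is known to be read. Windows are from the RefSeq promoter table of GRCh38.p14, in the direction of the gene, with the match in capitals and 30 bases on each side.
ASNS, chr7:97872439-97872506, minus strand: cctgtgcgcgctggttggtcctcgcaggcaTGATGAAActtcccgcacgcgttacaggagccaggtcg
CEBPG, chr19:33374041-33374108, plus strand: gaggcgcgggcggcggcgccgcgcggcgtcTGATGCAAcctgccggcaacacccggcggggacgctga
ATF3, chr1:212565186-212565253, plus strand: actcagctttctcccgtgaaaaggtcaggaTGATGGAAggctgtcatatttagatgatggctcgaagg
CHAC1, chr15:40953232-40953299, plus strand: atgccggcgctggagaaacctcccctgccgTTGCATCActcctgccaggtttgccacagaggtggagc
In CHAC1 the match is on the opposite strand. The match begins 68 bases before the start in ASNS, 42 in CEBPG, 191 in ATF3 and 209 in CHAC1. Counting a gene once if any of its starts had a match, 7 of 33 tested list members in the table had one (21.2%). The share was 2.28% of 8257 genes tested, 3.89% of all 27305 genes, 6.72% of the 134 separated higher and 1.72% of the 116 separated lower. The list was put together from genes that answer to ATF4, so its higher share is no separate result. The share of the separated higher genes counts ASNS, CEBPG, ATF3 and CHAC1 again. A match also stands in AARS1, which was not higher in SH-SY5Y. A match is a description of letters and shows no binding.

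**Figure D2:**
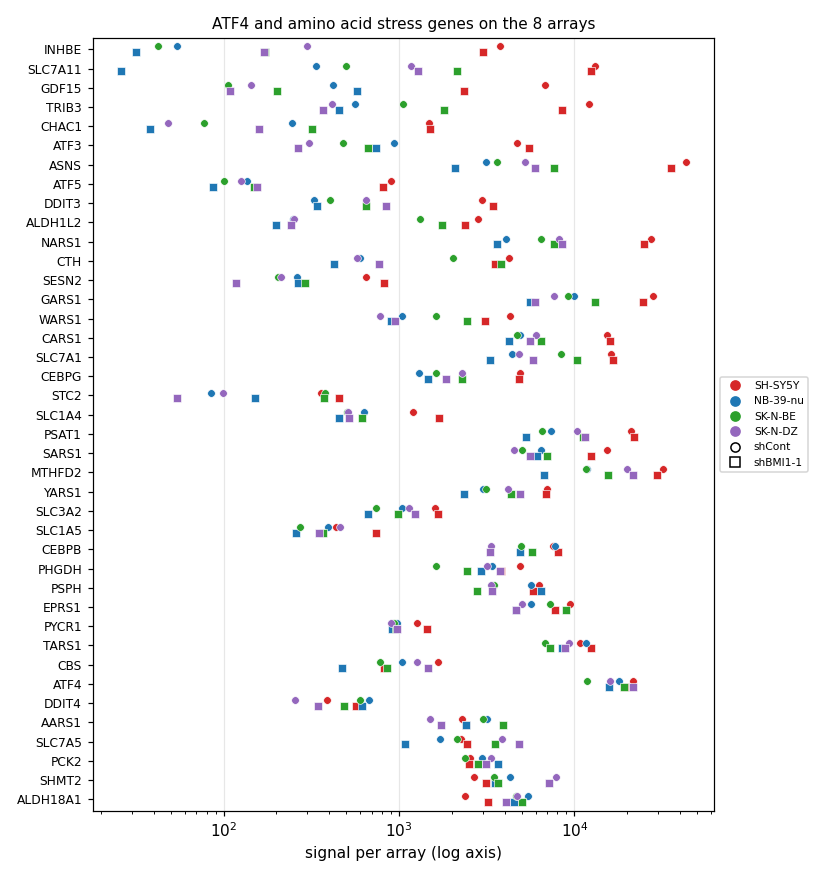
Signal on each array (log axis) of the 40 tested ATF4 and amino acid stress genes, ordered by their difference. SH-SY5Y (red) is the highest line in the upper rows, for example 43224 and 35491 for ASNS, and lies among the others for ATF4 and the lowest rows.

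The chaperones of the endoplasmic reticulum, the other arm of the protein folding response, did not share this pattern. Of 18 tested members, 7 were higher and 11 lower, with a median of -0.16. HSPA5, the chaperone BiP, read 6673 and 5054 in SH-SY5Y and 11243 to 17435 elsewhere (difference -1.23, SE 0.37; limma adjusted p = 0.953). This list was also added after values had been seen.

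Adrenergic identity genes read higher in SH-SY5Y as a group. Of 20 tested transcription factors of the adrenergic state, 18 were higher, 11 of them at least 2-fold, and the median was 1.06. The median was close against each line, at 1.00, 0.82 and 1.02. ISL1, which specifies sympathetic and motor neurons, read 26348 and 34720 against 966 to 4669 (difference 3.59, SE 0.71; limma adjusted p = 0.917). DACH1 read 2342 and 3158 against 29.1 to 1098, and was dim in SK-N-BE alone. TFAP2B read 7668 and 9006, with SK-N-BE next at 4395 and 5126 and the 2 remaining lines at most at 55.0. The core factors PHOX2A and HAND2 were nearly level, with differences of 0.36 and 0.29, and GATA3 was lower (-0.78). HEY1, a Notch target, ended the list at -1.41, with SK-N-DZ below SH-SY5Y.

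Of 17 neuropeptide genes on the array, 7 passed the filter, and 2 of these did so through their SH-SY5Y level, so the tested members alone say little. With no filter, 9 of the 17 were higher, with a median of 1.02. NPY, neuropeptide Y, read 27514 and 25494 in SH-SY5Y, 29990 and 35186 in SK-N-BE, and at most 62.8 in the 2 remaining lines. NTS (neurotensin) read 1024 and 965 against 5.47 to 281 and NMB (neuromedin B) 1565 and 1743 against 286 to 570, both separated. CHGB, a granin of dense-core vesicles, read 35211 and 41886 against 11037 and 13232 in SK-N-BE and at most 513 elsewhere. Of 26 neuronal structure and secretion genes, 20 were higher, and the median was 0.96. Against SK-N-BE alone that median was -0.19. NEFL and PRPH, both intermediate filament genes, were at -1.99 and -1.54, with SK-N-BE highest. Of 8 tested catecholamine genes, 5 were higher, beside 55.6% of all genes tested, with a median of 0.50. That median was -0.55 against SK-N-BE alone, and -0.05 with NB-39-nu left out. CYB561, the electron carrier of storage vesicles, read 11458 and 11630 against 257 to 2931. MAOA, which breaks down noradrenaline, was at -1.80 and overlapped with SK-N-DZ.

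Of the 2 lists of MYC-induced genes, both had medians below 0. Of 31 nucleolar and ribosome biogenesis genes that MYC proteins raise, 22 were lower, with a median of -0.26, and 0 were separated. Against SK-N-BE the median was 0.11. Of 34 other MYC-induced genes, 26 were lower, with a median of -0.44. HSPE1, the mitochondrial co-chaperonin, read 8273 and 8488 against 24279 to 36449 (difference -1.78, SE 0.34; limma adjusted p = 0.903). MCM5, MCM2 and MCM4, parts of the replication helicase, had differences of -1.58, -1.45 and -1.20, and MCM2 overlapped with NB-39-nu. IMPDH2, which makes guanine nucleotides, went the other way at 15262 and 15442 against 5210 to 7589.

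Of 32 tested cell cycle and mitosis genes, 25 were lower in SH-SY5Y, 13 of them at least 2-fold, and the median was -0.88. Both SH-SY5Y arrays were below all others for 18. Over all genes tested, 7.44% were at least 2-fold lower and 13.6% were below all others. AURKA, the mitotic kinase, read 907 and 1482 against 3418 to 6178 (difference -2.02, SE 0.45; limma adjusted p = 0.953), and E2F1, an activator of S phase genes, 5194 and 6400 against 13023 to 22201. CCNB1, cyclin B1, read 1435 and 2255 against 4317 to 16195. MKI67, the marker of cycling cells, read 242 on the control array and 509 on the knockdown array, against 855 to 1947. The 3 highest members were CDKN1A (p21), CDK6 and CCND1 (cyclin D1), at 3.46, 1.34 and 1.26. CDK6 and CCND1 were above all other arrays. CDKN1A was as high in NB-39-nu. How fast the cultures grew was not measured here.

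The MYC and MYCN E-box, CACGTG (its own reverse complement, so both strands read alike), was searched in the same 250 bases. It is shown because it is the element that MYC family proteins bind. The match stood in 13.8% of the 116 separated lower genes in the table, 8.96% of the 134 separated higher and 12.0% of the genes tested, so the shares were near each other.
SULF2, chr20:47786124-47786189, minus strand: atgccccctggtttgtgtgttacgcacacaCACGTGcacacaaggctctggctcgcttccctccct
EPB41L3, chr18:5521414-5521479, minus strand: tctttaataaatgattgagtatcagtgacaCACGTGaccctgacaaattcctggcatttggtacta
HSPE1, chr2:197500327-197500378, plus strand: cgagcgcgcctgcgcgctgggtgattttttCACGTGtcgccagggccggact
ASS1, chr9:130444860-130444925, plus strand: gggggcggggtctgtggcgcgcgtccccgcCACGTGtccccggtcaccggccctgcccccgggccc
ASS1, argininosuccinate synthase, was chosen for printing after its values were seen (680 and 435 against 5335 to 14624). In the promoter entries of separated genes the 2 elements overlapped in 1 place.

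Of 17 tested genes that MYCN is known to repress, 12 were higher, beside 55.6% of all genes tested, with a median of 0.56. That median was 1.39 against SK-N-DZ, 0.14 against NB-39-nu and 0.09 against SK-N-BE, where all genes tested had 0.07, 0.05 and 0.08. DKK1, a secreted Wnt inhibitor, read 20237 and 16641 against 22.9 to 4827, with SK-N-BE next. Of 24 tested apoptosis genes, 14 were higher, a share near the 55.6% over all genes tested, with a median of 0.22, which was -0.43 with the filter at the 75th percentile, and 1 was separated. It was PMAIP1, which encodes the cell death protein NOXA and read 5600 and 4840 against 3.48 to 1846. Of the neighbours of MYCN on chromosome 2, 6 of 13 were higher. DDX1, which lies beside MYCN, read 8905 and 9132 in SH-SY5Y. It read 85387 and 84295 in SK-N-DZ, and 11402 to 14926 in the 2 remaining lines. TRIB2 and MYCNOS were separated lower.

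Cholesterol synthesis genes, a list added after values were seen, were lower in 16 of 19, with a median of -0.77. INSIG1, which holds back the sterol sensor, read 139 and 192 against 1038 to 1712 (difference -2.96, SE 0.52; limma adjusted p = 0.769). HMGCS1, the first committed enzyme, read 592 and 383 against 1093 to 4514. The 3 members that were higher were TM7SF2, STARD4 and SREBF1, at 1.60, 1.01 and 0.64. Both SH-SY5Y arrays were below all others for 9 of the 19, beside 13.6% of all genes tested.

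Extracellular matrix and antigen presentation genes differed with the line they were set against. Of 24 matrix and adhesion genes, 20 were higher, with a median of 0.89, but 0.09 against SK-N-BE. With no filter, 26 of 45 were higher, with a median of 0.40. CDH2, N-cadherin, read 12787 and 12803 against 10.4 to 3232, and ITGA2, a collagen receptor, 1577 and 1497 against 47.8 to 335. SPARC, a matrix glycoprotein, was lowest at -1.66. Of 18 antigen presentation genes, 15 were lower, with a median of -0.80. B2M, the light chain of class I molecules, read 8669 and 8848 against 21410 to 47806 and was separated, but without SK-N-BE the list's median turned to 0.10. Of 26 tested mesenchymal state genes, 16 were higher, beside 55.6% of all genes tested, with a median of 0.39. That median was -0.49 against NB-39-nu, -0.12 against SK-N-BE and 0.64 against SK-N-DZ. SNAI2, a mesenchymal transcription factor, read 280 and 265 against 792 to 2159 and was separated lower. COL3A1, of the same list, read 1361 and 1268 against 54.0 to 389 and was separated higher. BST2, a membrane protein induced by interferon, read 10.6 and 30.2 against 270 to 1392, and IRF7, a regulator of interferon genes, went the other way at 504 and 472 against 137 to 177. Among receptor kinases and co-receptors, RET read 13174 and 11068 and overlapped with NB-39-nu (11070 on its knockdown array), while DLK1, an imprinted growth regulator, read 52374 and 49825 against 10728 and 10531 in SK-N-BE and at most 147 elsewhere.

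**Figure D3:**
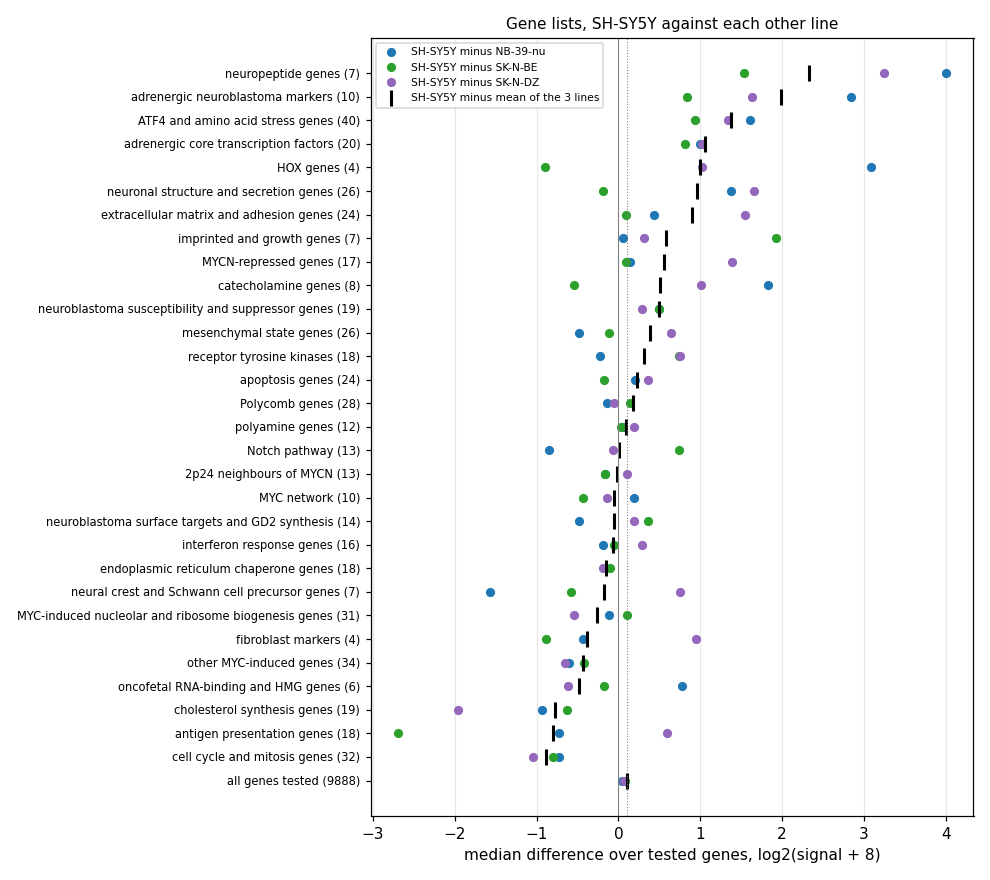
Median log2 difference over the tested members of the gene lists shown, each with at least 4 of them (number in brackets), against each other line (dots) and their mean (bars), with all genes tested in the last row and as the dotted line at 0.10. Cell cycle genes lie below 0 against every line and ATF4 genes above it, while antigen presentation and HOX genes change side with the line.

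Genes were also described by chromosome. Over all genes tested, 55.6% were higher in SH-SY5Y, 18.3% lay above all 6 other arrays and 1.73% were separated higher. Of 141 tested genes on chromosome 18, 123 were higher in SH-SY5Y, 75 lay above all 6 other arrays and 18 were separated higher. The median was 0.90, and it was 1.09, 0.77 and 0.71 against NB-39-nu, SK-N-BE and SK-N-DZ. TCF4, an E-protein transcription factor, read 36848 and 40647 against 4532 to 9686 (difference 2.68, SE 0.48; limma adjusted p = 0.769). SYT4, B4GALT6, CDH2, NARS1 and PMAIP1, described above, are on this chromosome, and so are IMPA2 and EPB41L3, which were separated lower. Chromosome 7, which holds TES, GNG11, RUNDC3B and ASNS, had a median of 0.39, from 0.24 to 0.38 against the single lines. Chromosome 14 had a median of 0.42, but it was 0.86 against SK-N-DZ and 0.08 against SK-N-BE. Chromosome 19 held 35 of the 171 genes separated higher, more than any other. Of these 35, 19 were zinc finger genes (symbols that start with ZNF or ZSCAN). In that family 127 of 143 tested genes on the chromosome were higher, and the rest of the chromosome was not described apart from it. Of its 614 tested genes, 396 were higher and 30.6% lay above all 6 other arrays, and its median of 0.31 was 0.37, 0.44 and 0.05 against the 3 lines.

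Chromosomes 16 and 22 were lower. On chromosome 16, 134 of 434 tested genes were higher, the median was -0.39, and 23 genes were separated lower against 1 higher. The median was -0.49, -0.27 and -0.42 against the 3 lines. On chromosome 22, 68 of 222 were higher, with a median of -0.31 and 10 separated lower. Over all genes tested, 55.6% were higher and 1.45% were separated lower. The medians were also taken with control or knockdown arrays alone, no filter, quantile normalization, the mean of probe sets, or 1 line left out. In all of these, chromosomes 7, 14, 18 and 19 kept a positive median and chromosomes 16 and 22 a negative one. The median over all genes was positive in each of them too, from 0.04 to 0.11. Chromosomes 1, 2, 3, 4, 5, 8, 13 and 17 also stayed positive, and chromosome 12 (median -0.05) stayed negative. The sign alone therefore does not set a chromosome apart. DNA copy number was not measured here.

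**Figure D4:**
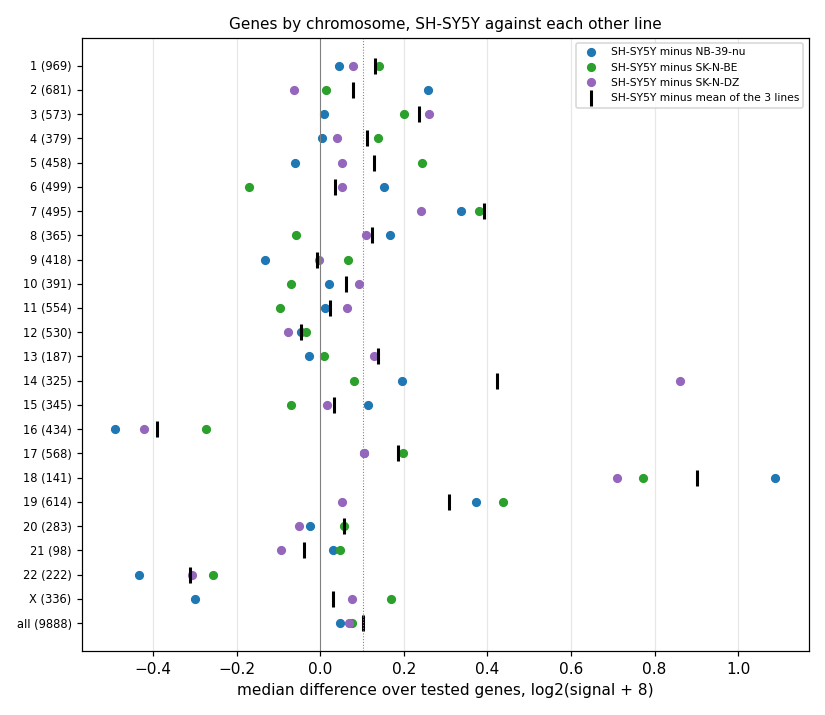
Median log2 difference over the tested genes of each chromosome (number in brackets) against each other line (dots) and their mean (bars), with all genes in the last row. Chromosome 18 lies at 0.71 or more against every line and chromosome 16 at -0.27 or less, while chromosome 14 is far from the rest only against SK-N-DZ.

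Across the genes tested, the SH-SY5Y difference from control arrays correlated with that from knockdown arrays at r = 0.904, a description over genes. A fit of the knockdown response, 1 line against 3, called 0 of 9888 genes (0%), with 490 at an unadjusted p under 0.05 and a lowest limma adjusted p of 0.549. With 2 residual degrees of freedom this count says nothing about whether the response differed. Of the 314 separated genes, 34 moved by at least 2-fold between the SH-SY5Y control and knockdown arrays, among them TMEM216, CD55 and EPB41L3, which were dim in SH-SY5Y.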

How the data were processed

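Array intensities (signal, linear scale) were deposited by the authors for 54675 probe sets on HG-U133 Plus 2.0 arrays. MAS5 and GCOS are the tools in the submitters' processing notes, without versions. The mean after trimming 2% at each end was 500 on all 8 arrays, and medians ran from 69.9 to 79.8. The table has no detection calls. The annotation gave 1 gene for 41097 probe sets, several for 1801 and none for 11777, and 41043 of the first took a RefSeq symbol (GRCh38.p14). Some items are not reported here.

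Signals were converted to log2(signal + 8). Folds on this scale understate dim genes. Each gene took its brightest probe set, and the 9888 genes above the median of mean values were tested. The model was lmFit and eBayes with trend on line means (limma 3.58.1, R 4.3.3), with 2 residual degrees of freedom, with Benjamini-Hochberg adjustment and a threshold of 0.05. The code was checked on simulated data. SE is that of the fit.

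The members and the 32 lists were chosen with earlier results of these data known, and 3 lists were added after values were seen. Named genes are MYCN, MYC and BMI1, the 15 separated highest and 15 lowest by the gap between the nearest arrays, called or separated list members and up to 3 members at each end of a list. Outside this rule, and chosen after their values were seen, are MAX, ATF4, TH, DDX1, MCM2, MCM4, TCF4, ASS1, the transfer RNA synthetases GARS1, WARS1, SARS1, YARS1 and AARS1, the threshold neighbours and the zinc finger and metallothionein genes. BMI1's probe set is annotated to the read-through COMMD3-BMI1 as well. Alternatives are described in the closing section.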

Additional observations from a re-analysis of the deposited data

How the results depend on the processing

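The fit on line means called 0 genes higher in SH-SY5Y under every alternative except the 8-array fit (125). It called 0 lower except with that fit (198), the filter at the 75th percentile (1, MYCN) and the random block (3). The MYCN difference was -6.49 in these 3 fits too, where it passed (limma adjusted p = 3.95e-05, 0.00582 and 0.00509), and from -6.53 to -6.42 with 1 line left out, where it did not. MYCN names the sides of the comparison, so its passing is no separate result. The MYC difference was 6.93 with no pseudocount and 3.56 with the table median as pseudocount. Separated genes numbered 363 higher with no filter and 46 higher and 60 lower with the filter at the 75th percentile. From control arrays alone they were 419 and 359, and from knockdown arrays alone 270 and 249. With 1 line left out they were 302 to 431 and 239 to 293: 340 and 239 without NB-39-nu, 431 and 293 without SK-N-BE, 302 and 263 without SK-N-DZ. Fewer arrays make separation easier, so these counts contain all of the 171 and 143. With the mean of all probe sets, 103 of the 171 and 93 of the 143 were shared. The 30 genes separated most kept their sign in 395 of 395 alternative values. List medians kept theirs in 289 of 319, and those that turned reached -0.53 (Notch pathway without SK-N-BE). No paired analysis was possible because no array of SH-SY5Y is paired with a particular array of another line. The hairpin, which all lines share, is the covariate of the 8-array fit. Dim signals limit the size of folds, and depth does not apply to arrays.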

Other observations

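Some gene families were looked at after the separated genes had been seen, and their counts are descriptions. Zinc finger genes on chromosome 19 (symbols that start with ZNF or ZSCAN, among them many KRAB repressors of transposons) were higher in SH-SY5Y for 127 of 143 tested, with a median difference of 0.93 and 19 separated higher. The median was 0.99, 0.92 and 0.70 against NB-39-nu, SK-N-BE and SK-N-DZ, and 0.81 after quantile normalization. Zinc finger genes on other chromosomes had a median of 0.45, with 142 of 187 higher, beside 0.10 over all genes tested. Of all genes tested, 55.6% were higher and 1.73% were separated higher. ZNF235 read 964 and 1003 in SH-SY5Y and 66.8 to 225 elsewhere, and ZNF558 read 3614 and 3405 against 598 to 1056. Probe sets of this family can share sequence between members, so the counts are not independent.

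Metallothionein genes, which bind zinc and copper, were lower in SH-SY5Y for 6 of 6 tested, with a median of -2.23. Of these, 5 were separated lower, beside 1.45% of all genes tested. MT1X read 519 and 526 against 2174 to 4416, and MT2A 977 and 814 against 2667 to 6033. The family lies on chromosome 16, whose tested genes had a median of -0.39, and its members are near copies whose probes can share signal.

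Of 2559 probe sets above the same filter that name several genes or none, 31 were separated higher and 31 lower.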
